A study of Mus musculus with 27 samples.

Results

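The response to Wnt3a was measured by RNA-sequencing in the 2 dHD2/fl mammary tumour cell lines, with 1 untreated and 1 Wnt3a-treated library of each line. These are 4 of the 27 libraries of the study, chosen by genotype and treatment and paired by the number of the line. The lines came from tumours of the thoracic mammary gland of MMTV-PyMT mice on the FVB/N background, in which the mouse mammary tumour virus promoter drives the polyoma middle T oncogene in the mammary epithelium. In both Bcl9 and Bcl9L, dHD2/fl lines (Bcl9/Bcl9L_deltaHD2/fl in the labels) carried 1 allele with a mutant HD2 domain beside an unrecombined floxed allele. They thus still had a functional copy. In mice, the authors report, HD1 and HD2 mutant forms also reduced tumour progression beside a floxed allele, which they propose to be a dominant effect. Having a functional copy thus describes the genotype and does not mean normal function. Line 1 and line 2 came from different mice, and each is 1 cell line from 1 tumour, so n = 2 is the number of mice. Treated cells received recombinant Wnt3a at 100 ng/ml for 3 days, and controls received growth medium. The labels give untreated cells a time point of 4 days, although plating and RNA isolation were simultaneous for all treatments, so if culture times differed, time and Wnt3a cannot be told apart. For comparison, the same lines were given TGFβ (2 ng/ml, 4 days), and Wnt3a was also applied to 2 dHD1/fl lines (mutant HD1 domain and a floxed allele), 3 dHD2/- lines and 2 dHD1/- lines, all of the MMTV-PyMT model. Cre recombinase, delivered by an adenovirus, had deleted the floxed allele of dHD2/- and dHD1/- lines. The labels state 2 mice per genotype but list 3 dHD2/- lines, so these may not all be independent. They do not say which mouse or parental line each dHD2/- line came from, so dHD2/- and dHD2/fl lines may share a mouse, although each line was its own block in the test. Lines with only wild-type Bcl9 and Bcl9L were not analysed here.

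Wnt ligands such as Wnt3a bind Frizzled receptors and the coreceptors Lrp5 and Lrp6, which stops the degradation of β-catenin by the Axin, Apc and Gsk3β destruction complex. β-catenin then enters the nucleus and activates genes bound by Tcf and Lef factors, with Bcl9 and Bcl9L as adaptors whose HD2 domain binds β-catenin and whose HD1 domain binds Pygopus. In the mouse mammary gland, stabilised β-catenin is known to cause epithelial cells to take on features of squamous, skin-like epithelium.

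Levels are given in CPM, the reads of a gene per 1000000 reads assigned to genes. They are not scaled by gene length and are compared here only within a gene. A change is the difference in log2(CPM + 1) between Wnt3a and untreated cells of the same line, a scale that understates the change of genes at low levels. Where a pair of levels is given for a line, the first is without cytokine and the second with Wnt3a. A gene is called where the limma adjusted p is at most 0.05 and the log2 fold change at least 1 in size. The 4 libraries held 23.2 to 27.01 M reads (1 M is 1000000, and all 27 held 21.86 to 33.69 M). A gene with 0 reads may thus still be present at up to 3 reads, or 0.111 to 0.129 CPM, a floor that covers counting error only. The cells expressed epithelial genes, with Krt8 at 1340 and 1510 CPM and Cdh1, which encodes E-cadherin, at 1050 and 1140 CPM in the untreated lines. The 28 luminal and simple epithelial genes listed summed to 5570 and 5380 CPM there, with 4 of them at 0 reads in each line. Mesenchymal genes were expressed too, and the 21 listed summed to 9050 and 5300 CPM. Of the 13 leukocyte markers listed, Cd3g, Cd8a, Cd4, Ms4a1 and Adgre1 were at 0 in all 4 libraries, while others were detected, with a summed level of 3.29 to 10.4 CPM. In these bulk samples fewer cells of a type and less RNA per cell cannot be told apart.

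Since the mutant alleles are those of Bcl9 and Bcl9l, both transcripts are described before the response. Bcl9 was at 35.3 CPM untreated and 32.6 CPM with Wnt3a in line 1, while line 2 had 55.2 and 52.4 CPM. Bcl9l was at 209 and 168 CPM in line 1 and, in line 2, at 255 and 201 CPM (log2 fold change -0.33 ± 0.18 SE, limma adjusted p 0.898). Neither gene was called as changed. A total over both alleles cannot tell mutant from floxed transcripts, so it is no check of the genotype. Ctnnb1, which encodes β-catenin, stood at 1140 and 1250 CPM in line 1 and, in line 2, at 2410 and 2530 CPM.

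The first question was how much of the response the 2 lines shared. Of the 24454 genes in the table, 544 changed by at least 1 on the log2(CPM + 1) scale in line 1 (322 higher, 222 lower) and 713 in line 2 (427 higher, 286 lower). Both lines had 168 of these genes higher (1.27% of the 13270 genes tested) and 115 lower (0.867%), which made up 52% of the line 1 genes and 39.7% of the line 2 genes. Only 3 genes, 0.551% and 0.421% of them, passed this size in opposite directions. Across the tested genes the changes of the 2 lines had a Pearson correlation of 0.66, given as a description, since genes are not independent replicates. The genes higher in both lines started low, which their selection by a rise partly builds in. Their median went from 2.65 to 14.3 CPM in line 1 and from 1.93 to 19 CPM in line 2. The median of the genes lower in both went from 15.6 to 3.66 and from 27.7 to 6.94 CPM. Over all tested genes the untreated medians were 30.9 and 29.6 CPM.

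**Figure D1:**
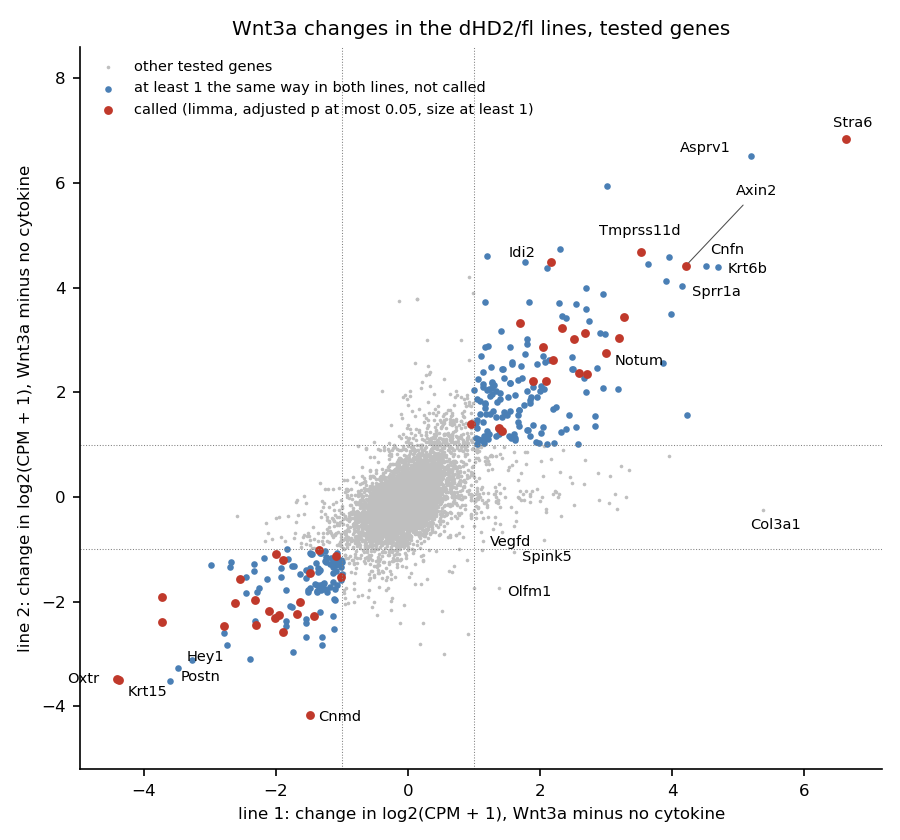
Change in log2(CPM + 1), Wnt3a minus no cytokine, of each tested gene in dHD2/fl line 1 (horizontal axis) and line 2 (vertical axis). Dotted lines mark changes of 1; blue points changed by at least 1 the same way in both lines, and red points were called by limma. Most large changes lie in the upper right and lower left, and Stra6 is the farthest point at the upper right.

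Paired by line, the test called 43 genes at a limma adjusted p of at most 0.05 and a log2 fold change of at least 1. Of these, 20 rose (0.151% of tested genes) and 23 fell (0.173%), and 839 genes had an unadjusted p under 0.05. All but 1 of the called genes also changed by at least 1 in each line. The exception was Plcd3, a phospholipase, at 40.3 and 78.8 CPM in line 1 and 22.2 and 60.2 CPM in line 2. The median of the genes that rose went from 0.711 to 12.4 CPM in line 1 and from 1.07 to 30.3 CPM in line 2. The spread in this fit came from all 9 lines, and the count of calls was 7 with edgeR on the recovered reads, 15 without the block and 124 without either dHD1/fl line. Axin2 was called in all 19 other fits that were run over all genes, Stra6, Dsc1 and Scel in 17 of them, and Tmprss11d, Oxtr, Fat2 and Krt75 in 4 to 6.

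**Figure D2:**
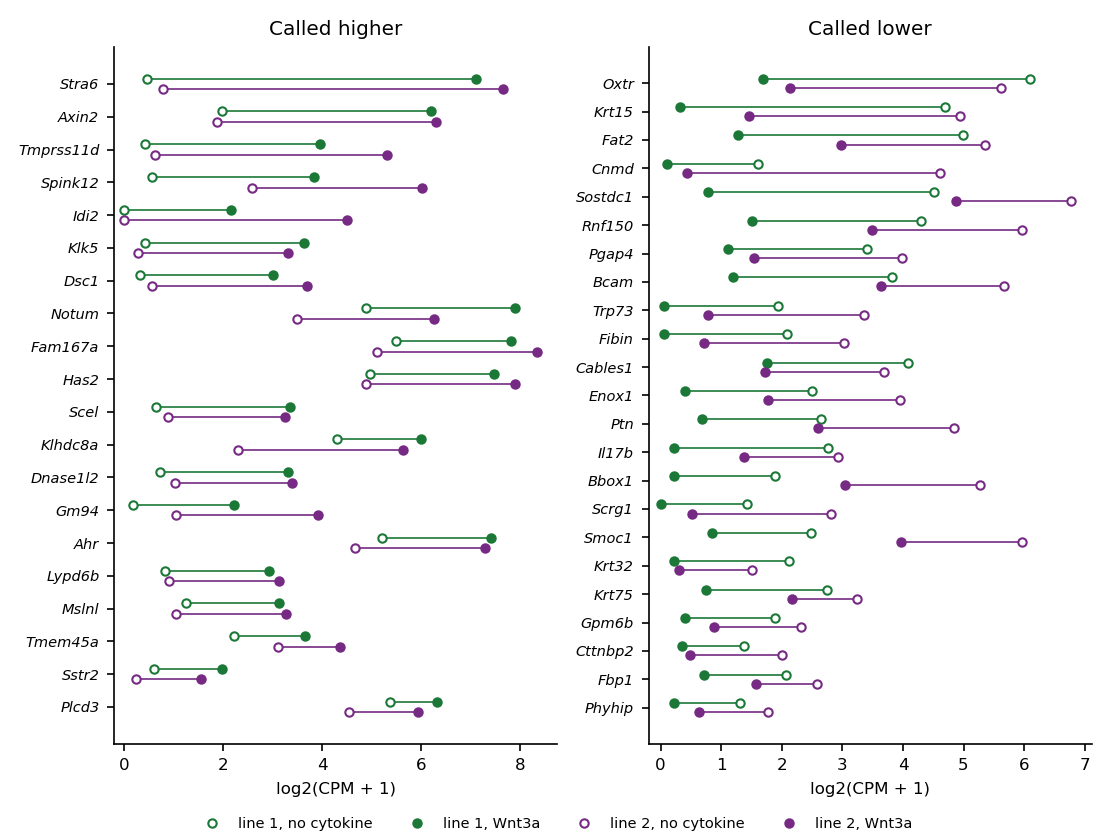
Levels, as log2(CPM + 1), of the 20 genes called higher (left) and the 23 called lower (right) in untreated cells (open points) and Wnt3a-treated cells (filled points) of line 1 (green) and line 2 (purple), 1 library each. Lines join the libraries of 1 cell line. In each panel both lines move the same way for every gene.

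Feedback inhibitors of the Wnt pathway were among the genes that rose. Axin2, a scaffold of the destruction complex that limits Wnt signalling, was at 2.97 and 2.70 CPM in untreated lines 1 and 2 and at 72.7 and 78.0 CPM with Wnt3a. Both treated libraries were thus far above both untreated ones and close to each other. Axin2 rose 24.4-fold in line 1 and 28.9-fold in line 2 (log2 fold change 4.31 ± 0.40 SE, n = 2 lines, limma adjusted p 0.000185, with a range of 4.28e-07 to 0.0495 over the other fits). Notum, a secreted enzyme that inactivates Wnt ligands by removing their lipid, went from 28.5 to 235 CPM in line 1 and from 10.3 to 75.3 CPM in line 2. The lines differed in level but rose by similar factors, 8.27-fold and 7.31-fold (2.88 ± 0.53 SE, limma adjusted p 0.0394). Notum was called in 10 of the 19 other fits, with adjusted p from 0.000116 to 1.

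Stra6, which encodes the membrane receptor for retinol-binding protein and takes up retinol (vitamin A), had the largest change in both lines. It was at 0.388 and 0.740 CPM in untreated lines 1 and 2 and at 136 and 199 CPM with Wnt3a, a rise of 351-fold and 268-fold (6.73 ± 0.82 SE, limma adjusted p 0.00186). Ccdc33, which overlaps Stra6, was at 0 in 3 of the 4 libraries and at 0.198 CPM in treated line 2. Stra6 was called in 17 of 19 other fits, with adjusted p from 2.41e-06 to 0.141.

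The promoter windows of Axin2 and Stra6, the responders called in the most fits besides Dsc1 and Scel, and of Krt32, the called gene that fell with a match, are shown since Wnt target promoters can carry Tcf and Lef motifs. Each window runs from 250 bases before to 50 bases after the annotated start site (RefSeq, GRCm38.p6), 5′ to 3′ on the strand of the gene, and capitals mark CTTTGAT or CTTTGAA on either strand. Axin2 (chr11:108917828-108950783) is shown at chr11:108920099-108920398, plus strand, Stra6 (chr9:58063793-58154004) at chr9:58129099-58129398, plus strand, and Krt32 (chr11:100080848-100088269) at chr11:100088220-100088519, minus strand.
Axin2: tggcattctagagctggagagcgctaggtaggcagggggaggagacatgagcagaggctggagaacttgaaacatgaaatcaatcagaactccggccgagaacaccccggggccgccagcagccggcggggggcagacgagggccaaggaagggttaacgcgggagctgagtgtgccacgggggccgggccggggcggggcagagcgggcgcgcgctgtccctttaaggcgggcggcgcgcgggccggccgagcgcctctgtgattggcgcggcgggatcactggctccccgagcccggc
Stra6: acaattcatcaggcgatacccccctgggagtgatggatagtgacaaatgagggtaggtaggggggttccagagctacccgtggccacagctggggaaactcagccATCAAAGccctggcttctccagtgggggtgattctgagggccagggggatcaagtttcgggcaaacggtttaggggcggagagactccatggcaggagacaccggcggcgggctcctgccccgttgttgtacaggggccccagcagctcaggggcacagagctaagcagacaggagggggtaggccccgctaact
Krt32: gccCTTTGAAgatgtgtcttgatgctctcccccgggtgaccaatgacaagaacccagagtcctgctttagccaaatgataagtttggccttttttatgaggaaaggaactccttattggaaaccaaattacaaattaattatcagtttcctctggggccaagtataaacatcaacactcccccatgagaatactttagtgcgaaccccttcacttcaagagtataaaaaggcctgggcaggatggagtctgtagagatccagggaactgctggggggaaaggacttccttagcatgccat

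The Axin2 window held neither motif. The match in Stra6, which lies on the opposite strand, started 145 bases before the start site, and the one in Krt32 started 247 bases before it. Stra6 had 4 annotated windows, and this was the one with a match. Among called genes with a window, 1 of the 12 that rose (8.33%) and 1 of the 15 that fell (6.67%) held a match, against 7.14% of tested genes and 8.94% of all genes with a window. These shares are a description of windows of this length only.

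Other components of the pathway were taken from lists chosen with earlier results of these data known, so their counts are a description. Of 17 tested Wnt feedback inhibitors and direct targets, 2 rose (0.151% of all tested genes did) and none fell, and Ccn4, named after its values were seen, was the third that was at least 1 higher in both lines (5.69 and 20.2 CPM in line 1, 1.15 and 4.80 CPM in line 2). In both lines 10 of the 17 were higher (58.8%) and 2 lower (11.8%), against 27.2% and 43.7% of all tested genes, with median changes of 0.28 and 0.40, against -0.05 in each line over all tested genes. Ccnd1, which encodes cyclin D1, was at 902 and 1610 CPM in line 1 and, in line 2, at 816 and 1300 CPM, and was not called. Sox9, a transcription factor, was at 358 and 251 CPM in line 1 and, in line 2, at 654 and 447 CPM. Nkd2, an inhibitor of Dishevelled, was at 450 and 498 CPM in line 1 and, in line 2, at 1110 and 1240 CPM. Lef1, a transcription factor of the pathway named after its values were seen, was at or under 0.362 CPM in all 4 libraries.

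None of 31 tested Wnt ligands, receptors and secreted inhibitors was called. In both lines 2 were at least 1 higher, Wnt11 and Wnt9a (6.45%, against 1.27% of all tested genes). Of the abundant members, the ligand Wnt7b was at 186 and 289 CPM in line 1 and, in line 2, at 148 and 404 CPM. The receptor Fzd7 was at 162 and 90.1 CPM in line 1 and, in line 2, at 337 and 172 CPM. Transcripts of Wnt3a itself were at or under 0.0805 CPM in the 4 libraries. None of 24 members of the destruction complex and of the nuclear β-catenin complex was called or passed a change of 1 in both lines, and their medians were -0.08 and -0.09.

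Of the 21 lists, squamous differentiation had the most genes that were higher in both lines. They build the cornified envelope, the cross-linked protein shell of skin cells, or the proteases and junctions of the upper epidermis. Of 41 listed genes 34 were tested. Of these, 18 (52.9%) were at least 1 higher in both lines, against 1.27% of all tested genes, and none was that much lower. In both lines 29 were higher and 1 lower, with median changes of 1.68 and 1.36. Their summed level went from 677 to 1840 CPM in line 1 and from 1470 to 2990 CPM in line 2. Of the 34, 3 were called, against 20 of all 13270 tested genes called higher (0.151%). When the 4 libraries were fitted alone 9 were called, of 49 genes called higher, and without either dHD1/fl line 10, of 86. The list was chosen with results of these data known, so these counts are a description. A member could also be among those tested through the 2 treated libraries alone (1 CPM in 2 of 27 libraries).

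The 3 called members were Scel, Dsc1 and Klk5. Scel encodes sciellin, a precursor of the cornified envelope, and was at 0.560 and 0.851 CPM untreated and at 9.22 and 8.49 CPM with Wnt3a in lines 1 and 2 (2.53 ± 0.15 SE, limma adjusted p 4.76e-06). Dsc1, a desmosomal cadherin of the upper epidermis, went from 0.259 to 7.05 CPM in line 1 and from 0.481 to 12 CPM in line 2 (2.90 ± 0.21 SE, limma adjusted p 3.38e-05). Klk5, a kallikrein protease that starts the shedding of skin cells, went from 0.345 to 11.4 CPM in line 1 and from 0.222 to 8.96 CPM in line 2 (limma adjusted p 0.000917, n = 2 lines). For each of the 3 genes both treated libraries were above both untreated ones by a wide margin, but all untreated levels were under 1 CPM.

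More abundant members had large changes that were not called. Sprr1a, a small proline-rich protein of the envelope, was at 17.0 and 319 CPM in line 1 and, in line 2, at 28.3 and 479 CPM (4.09 ± 1.61 SE, limma adjusted p 0.682, and 0.00831 in the 4 libraries alone). Evpl, which encodes envoplakin, was at 64.4 and 174 CPM in line 1 and, in line 2, at 170 and 491 CPM (limma adjusted p 0.99, and 0.0291 in the 4 libraries alone). Of genes named after their values were seen, Asprv1, a skin aspartic protease, was at 1.42 and 87.3 CPM in line 1 and, in line 2, at 2.37 and 309 CPM (limma adjusted p 0.0946). Cnfn, which encodes cornifelin, was at 0.560 and 34.6 CPM in line 1 and, in line 2, at 0.518 and 31.3 CPM (limma adjusted p 0.159). The treated libraries of all 4 genes lay above the untreated ones, a description of genes shown for large changes. The share of all tested genes with this order was not counted.

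**Figure D3:**
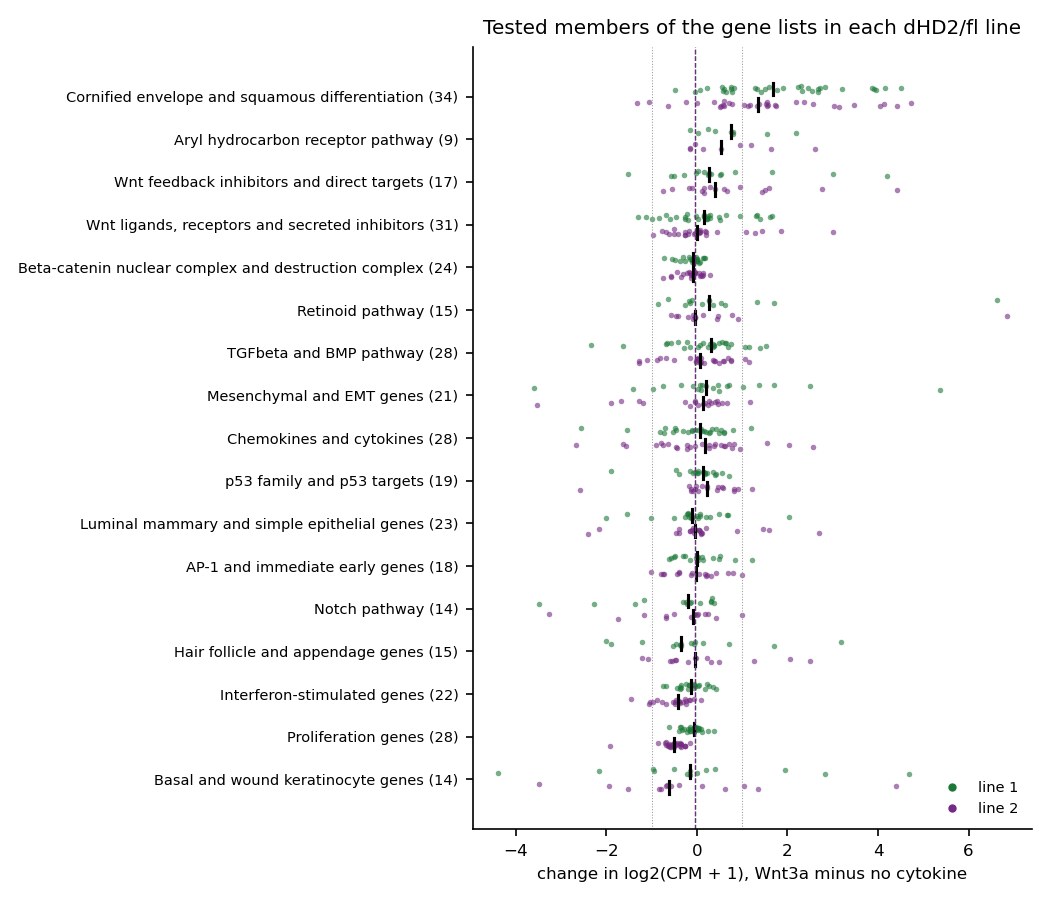
Change in log2(CPM + 1), Wnt3a minus no cytokine, of each tested member of 17 gene lists (number tested in brackets) in dHD2/fl line 1 (green) and line 2 (purple). Black bars are medians, the dashed line is the median of all tested genes, and dotted lines mark changes of 1. The squamous list is shifted to the right in both lines, with medians of 1.68 and 1.36.

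Gene families were counted after the values were seen, and they differed. A gene was tested if it reached 1 CPM in 2 of the 27 libraries, which the 2 treated libraries alone can satisfy. Members may thus be among those tested only because they rose, so these shares are a description. Klk9, for example, was at 0.345 and 2.46 CPM in line 1 and, in line 2, at 0.407 and 2.5 CPM. All 9 tested kallikreins, of 27 in the table, were higher in both lines (27.2% of all tested genes were), and 8 of them by at least 1 (1.27% of all tested genes), all within chr7:43680880-43851181 (GRCm38). Of 6 Lce3 genes, which encode late cornified envelope proteins, 5 were at least 1 higher in both lines, within chr3:92925287-92968281. Of 15 tested type II keratins on chromosome 15 (27 in the table), Krt4, Krt6a, Krt6b, Krt78, Krt79 and Krt90 were at least 1 higher in both lines and Krt75 was lower, and 9 of the 15 were higher in both. Of 11 tested type I keratins (49 in the table) 1 was at least 1 higher in both lines, Krt16, and 2 were lower, Krt15 and Krt32. At least 1 higher in both lines were also 1 of 4 tested Lce1 genes (14 in the table), 3 of 14 tested S100 genes (19), 2 of 4 tested Sprr genes (16), 2 of 4 tested Tmprss11 genes (7) and 2 of 2 tested Il1 family genes (5), while of 33 tested collagens (44) 1 was higher and 4 were lower. Krt6a, a keratin of wounded and fast-renewing epithelium, was at 312 and 1210 CPM in line 1 and, in line 2, at 873 and 1810 CPM. Krt79, a keratin of the hair follicle duct, was at 164 and 1490 CPM in line 1 and, in line 2, at 490 and 2040 CPM. Krt6a, Krt6b and the Lce3 genes have near-identical copies, and only uniquely aligned reads were counted, so how their reads divide is uncertain.

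Other called genes that rose encode proteases, their inhibitors and enzymes. Tmprss11d, a membrane-bound serine protease of airway and squamous epithelium, went from 0.345 to 14.6 CPM in line 1 and from 0.555 to 38.9 CPM in line 2 (4.11 ± 0.74 SE, limma adjusted p 0.0361). Spink12, a serine protease inhibitor of the Kazal type, went from 0.474 to 13.3 CPM and from 4.96 to 63.7 CPM (3.36 ± 0.37 SE, limma adjusted p 0.000917). Dnase1l2, a DNase of keratinocytes, went from 0.646 to 8.90 CPM in line 1 and from 1.04 to 9.52 CPM in line 2 (2.48 ± 0.34 SE, limma adjusted p 0.0047). Untreated line 2 had more Spink12 than untreated line 1, while Dnase1l2 had similar levels in both, and the treated libraries lay above the untreated ones for each gene. Idi2, an isopentenyl diphosphate isomerase, had 0 reads in both untreated libraries and was at 3.46 and 21.7 CPM with Wnt3a, at least 26.8-fold and 195-fold higher than a floor of 3 reads per library (limma adjusted p 0.00314).

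Ahr, Has2 and Fam167a rose from higher starting levels. Ahr, a transcription factor activated by aromatic ligands, went from 35.8 to 168 CPM in line 1 and from 24.4 to 154 CPM in line 2, which was 4.68-fold and 6.3-fold (2.40 ± 0.43 SE, limma adjusted p 0.0361). Of 9 tested genes of the Ahr pathway, 1 was called (0.151% of all tested genes were called higher) and 2 were at least 1 higher in both lines (1.27% of all tested genes), the other being Aldh3a1, an aldehyde dehydrogenase, at 1280 and 3730 CPM in line 1 and, in line 2, at 295 and 923 CPM. Medians of this list were 0.75 and 0.53. Cyp1b1, a cytochrome P450 that Ahr is known to induce, was at 427 and 743 CPM in line 1 and, in line 2, at 144 and 330 CPM.

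Has2, a hyaluronan synthase, went from 30.3 to 177 CPM in line 1 and from 28.4 to 237 CPM in line 2, which was 5.85-fold and 8.34-fold (2.76 ± 0.47 SE, limma adjusted p 0.027). Fam167a went from 43.8 to 225 CPM in line 1 and from 33.3 to 321 CPM in line 2 (2.78 ± 0.47 SE, limma adjusted p 0.027). For both genes the treated libraries of both lines were well above both untreated ones. Of 15 tested retinoid genes only Stra6 was called or changed by at least 1 in both lines. Over all tested genes, 0.151% were called higher and 1.27% were at least 1 higher in both lines. Of the 15, 6 were higher and 6 lower in both (40% each, against 27.2% and 43.7% of all tested genes). Crabp2, a carrier of retinoic acid, was at 29.1 and 75.1 CPM in line 1 and, in line 2, at 96.6 and 166 CPM and was not called.

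Several of the genes that fell encode receptors, keratins or adhesion proteins. Oxtr, the oxytocin receptor through which myoepithelial cells contract, was at 67.3 and 48.0 CPM in untreated lines 1 and 2 and at 2.21 and 3.41 CPM with Wnt3a. It fell 30.4-fold and 14.1-fold (-3.94 ± 0.75 SE, limma adjusted p 0.0497). Krt15, a keratin of basal cells and hair follicle stem cells, was at 24.9 and 0.242 CPM in line 1 and, in line 2, at 29.9 and 1.75 CPM (-3.94 ± 0.71 SE, limma adjusted p 0.0361). Treated levels of both genes were lower than either untreated level by more than 10-fold. Bcam, a laminin receptor, fell from 13.1 to 1.29 CPM and from 50.1 to 11.5 CPM (-2.32 ± 0.38 SE, limma adjusted p 0.0193). Fat2, an atypical cadherin, fell from 30.8 to 1.41 CPM in line 1 and from 40.1 to 6.86 CPM in line 2 (-3.06 ± 0.54 SE, limma adjusted p 0.0361).

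The list of basal and wound keratinocyte genes as a whole was mixed. Of its 14 genes, 1 fell and none rose by the test, 3 were at least 1 higher and 1 at least 1 lower in both lines (1.27% and 0.867% of all tested genes), and 9 were lower in both (64.3%, against 43.7% of all tested genes), with medians of -0.16 and -0.61. Krt5 was at 559 and 124 CPM in line 1 and, in line 2, at 6830 and 3810 CPM, whereas its partner Krt14 had 6790 and 7840 CPM in line 1 and 8750 and 9420 CPM in line 2. Neither was called. Among 15 hair follicle and appendage genes, 2 fell (0.173% of all tested genes did), the hair keratins Krt32 and Krt75. Krt32 was at 3.32 and 0.161 CPM in line 1 and, in line 2, at 1.85 and 0.238 CPM (-1.55 ± 0.17 SE, limma adjusted p 0.000917). In this list 2 genes were at least 1 higher in both lines, among them Krt79, and 2 at least 1 lower. These were 13.3% each, against 1.27% and 0.867% of all tested genes, and the medians were -0.34 and -0.04.

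Secreted regulators were also among the genes that fell. Sostdc1, a secreted antagonist of BMP and Wnt signalling, went from 21.9 to 0.725 CPM in line 1 and from 109 to 28.3 CPM in line 2 (-2.82 ± 0.32 SE, limma adjusted p 0.00109). Ptn, the heparin-binding growth factor pleiotrophin, went from 5.26 to 0.604 CPM and from 27.7 to 5.04 CPM (-2.11 ± 0.19 SE, limma adjusted p 0.000133). Il17b, a cytokine, went from 5.82 to 0.161 CPM in line 1 and from 6.63 to 1.59 CPM in line 2 (-2.06 ± 0.25 SE, limma adjusted p 0.00186). Treated line 2 kept more Sostdc1 than untreated line 1 had, so for this gene the groups overlapped and the change was seen only within lines. Bbox1 and Smoc1, named after their values were seen, also overlapped, with treated line 2 at 7.26 and 14.6 CPM and untreated line 1 at 2.72 and 4.57 CPM.

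Trp73, a transcription factor of the p53 family, went from 2.84 to 0.0403 CPM in line 1, where a single read remained, and from 9.26 to 0.714 CPM in line 2 (-2.23 ± 0.19 SE, limma adjusted p 0.000127). Among 19 p53 family members and targets only Trp73 was called (0.173% of all tested genes were called lower). Cdkn1a, a cell cycle inhibitor that p53 induces, was at 299 and 487 CPM in line 1 and, in line 2, at 324 and 575 CPM and was not called. Cables1, an adaptor of cyclin-dependent kinases, was at 15.9 and 2.38 CPM in line 1 and, in line 2, at 11.9 and 2.30 CPM, 6.69-fold and 5.17-fold lower (-2.14 ± 0.29 SE, limma adjusted p 0.0047). Pgap4, an enzyme that modifies membrane anchors of proteins, was at 9.65 and 1.17 CPM in line 1 and, in line 2, at 14.9 and 1.90 CPM (-2.37 ± 0.21 SE, limma adjusted p 0.000127). Fibin, a secreted protein, fell from 3.23 to 0.0403 CPM, again 1 read, and from 7.18 to 0.635 CPM (-2.17 ± 0.19 SE, limma adjusted p 0.000127).

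Of the remaining genes that fell, Rnf150, a RING finger protein, was at 18.7 and 1.85 CPM in line 1 and, in line 2, at 61.2 and 10.2 CPM (-2.63 ± 0.37 SE, limma adjusted p 0.00602). Enox1, an oxidase of the cell surface, was at 4.65 and 0.322 CPM in line 1 and, in line 2, at 14.5 and 2.42 CPM (-2.14 ± 0.25 SE, limma adjusted p 0.00109). The other called genes, listed here only so that all 43 are accounted for, were Cnmd, Scrg1, Gpm6b, Cttnbp2, Fbp1 and Phyhip, with log2 fold changes from -2.83 to -1.11, and, among those that rose, Klhdc8a, Gm94, Lypd6b, Mslnl, Tmem45a and Sstr2, with log2 fold changes from 1.34 to 2.51. Sstr2 overlaps the more abundant Slc39a11 (94.9 to 127 CPM in the 4 libraries), and the strand used in counting is not known.

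Large decreases seen in both lines, but not called, included Notch pathway genes. Of 14 tested members none was called and 3 were at least 1 lower in both lines (0.867% of all tested genes), the target Hey1 and the ligands Jag2 and Dll1. All 3 were called lower when the 4 libraries were fitted alone. Jag2 was at 83.5 and 16.6 CPM in line 1 and, in line 2, at 178 and 52.7 CPM (limma adjusted p 0.153). Hey1, named after its values were seen, was at 106 and 8.62 CPM in line 1 and, in line 2, at 22.6 and 1.47 CPM (limma adjusted p 0.219). The receptor Notch1 was at 437 and 169 CPM in line 1 and, in line 2, at 688 and 426 CPM, and the medians of the list were -0.18 and -0.09. Also named after their values were seen, Postn, which encodes the matrix protein periostin, was at 460 and 37.1 CPM in line 1 and, in line 2, at 209 and 17.4 CPM, and Igfbp5, an IGF-binding protein, was at 2300 and 335 CPM in line 1 and, in line 2, at 798 and 131 CPM.

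The remaining lists held few shared changes. None of 28 proliferation genes was called or passed 1 in both lines, although 20 were lower in both and none higher, against 43.7% and 27.2% of all tested genes. Their medians were -0.06 in line 1 and -0.50 in line 2, and Mki67, named after its values were seen, was at 219 and 143 CPM in line 1 and, in line 2, at 310 and 81.1 CPM. Of 22 interferon-stimulated genes none was called, with medians of -0.12 and -0.43. In both lines 14 were lower (63.6%) and none higher, against 43.7% and 27.2% of all tested genes. Among 23 luminal genes none was called, with medians of -0.11 and -0.03. In both lines 1 was at least 1 higher and 1 lower (4.35% each, against 1.27% and 0.867% of all tested genes). None of 18 AP-1 and immediate early genes was called, and their medians were 0.01 and -0.03. Of 28 chemokines and cytokines, 1 fell (0.173% of all tested genes did), Il17b, and 2 were at least 1 lower in both lines (0.867% of all tested genes), with medians of 0.06 and 0.18.

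Of mesenchymal genes and markers of other cell types, fibroblast markers differed most between the lines. Of 21 mesenchymal genes and 28 TGFβ and BMP pathway genes none was called. Medians were 0.20 and 0.14 for the mesenchymal list, with 2 genes at least 1 lower in both lines (9.52%, against 0.867% of all tested genes). For the TGFβ and BMP list they were 0.32 and 0.08, with 1 gene higher and 1 lower by that size (3.57% each, against 1.27% and 0.867%). The summed level of 11 fibroblast markers went from 47.5 to 290 CPM in line 1 but from 5.29 to 4.44 CPM in line 2. Col3a1, a fibroblast collagen, was at 1.51 and 103 CPM in line 1 and, in line 2, at 0.185 and 0 CPM, while Lum, Fap and Dpt were at 0 in all 4 libraries. No fibroblast marker of the 7 tested was called or at least 1 higher in both lines, and the part of this shift in the results was not tested. Summed leukocyte markers went from 5.99 to 8.25 and from 3.29 to 10.4 CPM, with both tested members higher in both lines, endothelial markers from 3.10 to 1.37 and from 2.37 to 1.35 CPM, and adipocyte and muscle markers from 0.215 to 0.121 and from 0.222 to 0.516 CPM, with none called.

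The 3 genes that changed in opposite directions were Spink5, Olfm1 and Vegfd. Spink5, an inhibitor of skin kallikreins, went from 10.5 to 33.9 CPM in line 1 and from 352 to 169 CPM in line 2. Olfm1 went from 0.776 to 3.62 CPM in line 1 and from 12.6 to 3.09 CPM in line 2. Vegfd, a growth factor of lymphatic vessels, went from 1.77 to 5.03 CPM in line 1 and from 3.26 to 1.11 CPM in line 2. In each case the untreated level was lower in line 1 than in line 2, and none of the 3 was called.

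The same lines under TGFβ share their untreated libraries with this comparison, so values are given side by side only. Axin2 was at 0.756 and 0.462 CPM with TGFβ in lines 1 and 2, Notum at 1.17 and 0.817 CPM, and Stra6 at 0.0756 and 0.0710 CPM. Has2 was at 307 and 246 CPM with TGFβ, against 177 and 237 CPM with Wnt3a. Ahr was at 19.6 and 14.6 CPM, and Oxtr at 0.454 and 9.02 CPM.

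The response of dHD2/fl lines was then set beside that of dHD2/- lines, which lack the functional Bcl9 and Bcl9L copy. Of the 43 genes called in dHD2/fl lines, 21 were under 1 CPM in every untreated and Wnt3a-treated dHD2/- library, so they passed the filter on low values through other lines. In the test of the difference in response 16 of the 13270 genes were called (0.121%), and 374 had an unadjusted p under 0.05. All 16 were among the 43, and none was above 2.18 CPM in an untreated dHD2/- library. Of the 7 that fell in dHD2/fl lines, 5 were under 1 CPM in every untreated dHD2/- library, which left little room for a fall on the log2(CPM + 1) scale, so for these a lower starting level and a lost response cannot be told apart. Of the 9 that rose, some had few or no reads in dHD2/- lines, such as Dsc1, Scel, Klk5 and Idi2. For these a gene not expressed and a lost response cannot be told apart. The difference of Dnase1l2 (-2.79) was larger than its rise in dHD2/fl lines (2.48), so it was detected in dHD2/- lines. Dsc1 differed by -2.91 ± 0.27 (SE, dHD2/- minus dHD2/fl, limma adjusted p 0.000664), and it was at or under 0.0419 CPM in every untreated and Wnt3a-treated dHD2/- library. Scel differed by -2.46 ± 0.19 (limma adjusted p 0.000147), and its highest level in Wnt3a-treated dHD2/- lines was 0.166 CPM. Klk5 was at most at 0.124 CPM and Idi2 at 0 in all dHD2/- libraries. The count of called differences was 0 with edgeR (247 at an unadjusted p under 0.05), 2 without the block and 47 at the highest when a line was left out.

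Axin2 was not called as different. It changed by 4.05, 3.71 and 3.65 in dHD2/- lines 1 to 3. Stra6 changed by 2.08, 4.89 and 4.44 and Notum by 1.21, 2.41 and 2.47 in these lines, against 6.63 and 6.84 for Stra6 and 3.00 and 2.76 for Notum in dHD2/fl lines.

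In dHD1/fl lines, which also keep a functional copy, the same test called 7 genes (0.0528%, 296 at an unadjusted p under 0.05), all among the 16 above. Of these, Pgap4, Fibin, Ptn, Trp73 and Krt32 had fallen in dHD2/fl lines and were under 1 CPM in every untreated dHD1/fl library, which left little room for a fall on the log2(CPM + 1) scale, and the difference of Ptn turned direction with DESeq2 and edgeR. The other 2 were Dsc1 (-2.48 ± 0.30 SE, dHD1/fl minus dHD2/fl, limma adjusted p 0.0109), at most at 0.888 CPM in dHD1/fl lines with Wnt3a, and Scel (-2.22 ± 0.21 SE, limma adjusted p 0.00138), at most at 0.571 CPM. Both genes thus passed the filter through other lines, but these levels were above 3 reads (0.0951 and 0.1066 CPM in the treated dHD1/fl libraries). Their differences were smaller than their rises in dHD2/fl lines (2.90 and 2.53), so a small rise remained on average. A low level of the gene and a weaker response cannot be told apart. With edgeR this count was also 0 (243 at an unadjusted p under 0.05).

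The squamous list was at least 1 higher in 22 and 21 of 34 genes in dHD2/fl lines 1 and 2. In dHD1/fl it was 25 in line 1 and 3 in line 2, in dHD2/- 0, 13 and 11 in lines 1 to 3, and in dHD1/- 0 and 1. Over all 13270 tested genes the counts were 318 and 414 in dHD2/fl, 572 and 160 in dHD1/fl, 35, 355 and 374 in dHD2/-, and 66 and 60 in dHD1/- lines, so lines with few squamous genes at this size also had few such genes in all. Lines of dHD1/fl and of dHD2/- thus differed among themselves, and no list was tested between genotypes. Over the 168 genes at least 1 higher in both dHD2/fl lines, the median change was 2.26 and 0.00 in dHD1/fl lines, 0.15, 0.37 and 0.46 in dHD2/- lines and 0.04 and 0.00 in dHD1/- lines. Of them, 46.4% were higher in all 3 dHD2/- lines, against 14.9% of all tested genes, 47% in both dHD1/fl lines, against 16.4%, and 26.8% in both dHD1/- lines, against 24.8%. Of the 115 genes lower in both dHD2/fl lines, 54.8% were lower in all 3 dHD2/- lines, against 17% of all tested genes, 57.4% in both dHD1/fl lines, against 38.5%, and 53% in both dHD1/- lines, against 34.8%.

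**Figure D4:**
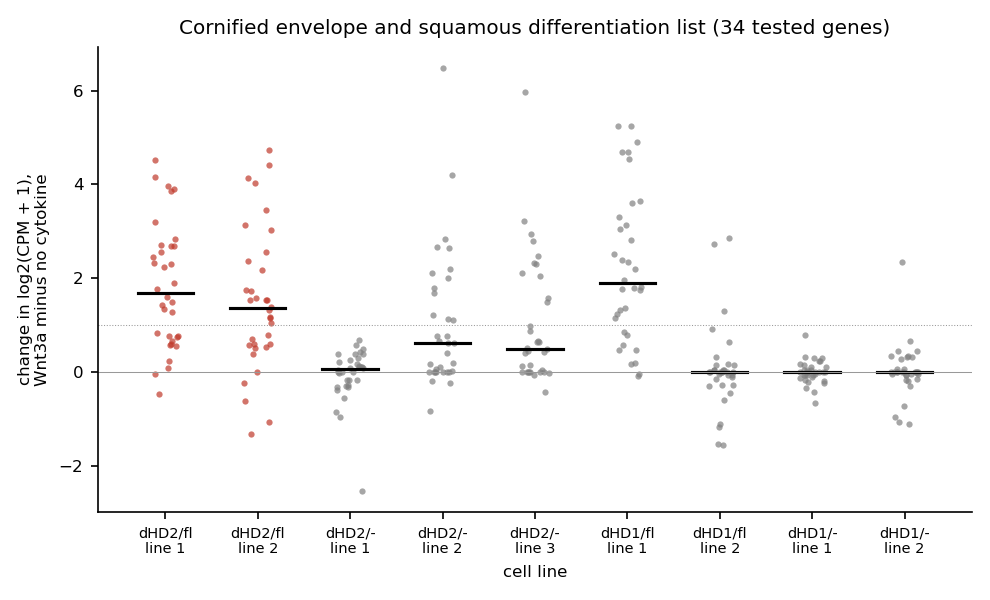
Change in log2(CPM + 1), Wnt3a minus no cytokine, of the 34 tested squamous differentiation genes in each of the 9 cell lines. Points are genes, bars are medians, and the dotted line marks a change of 1. Medians are 1.68 and 1.36 in dHD2/fl lines (red), 1.89 and 0.00 in dHD1/fl lines and at most 0.61 in dHD2/- lines.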

How the data were processed

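RNA of 27 libraries (9 tumour cell lines, 12 groups) was measured. The authors prepared stranded mRNA libraries, kept single reads that STAR aligned uniquely to mm10, and used QuasR to count those whose start fell in a RefSeq exon, the strand setting not being given in the sources used here. The deposited table held CPM values for 24454 Entrez identifiers, and symbols were found for 24381. All values (100%) were whole reads within a tolerance of 0.01, so reads were recovered from them for the count tests.

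Genes reaching 1 CPM in 2 or more of the 27 libraries (13270) were tested on log2(CPM + 1), a pseudocount of 1, by limma 3.58.1 (R 4.3.3; robust eBayes with a trend) with cell line as a block and group effects, which left 10 residual degrees of freedom. Replicate numbers stand for cell lines, and the untreated and Wnt3a libraries of a line deviated together from their group means (correlation 0.823 in dHD2/fl lines), so libraries were paired. Calls needed an adjusted p (Benjamini-Hochberg) not above 0.05 and a log2 fold change of at least 1. Coordinates and promoter windows are from RefSeq on GRCm38.p6, with a window for 18170 genes.

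The genes, 21 lists and the rule for naming genes were chosen with earlier results of these data known. The rule took Axin2, Bcl9 and Bcl9l, the 12 called genes with the largest rise and the 12 with the largest fall by the smaller of both lines' changes, each list's called members and 4 most abundant members, up to 5 genes of opposite change, and up to 5 called genes of each difference in response. Alternatives were edgeR 4.0.16 and DESeq2 1.42.0 on recovered reads, median-of-ratios scaling, a pseudocount of 0.1, no filter, other thresholds, fewer libraries, no block, and leaving out each line. Tables were handled in Python 3.11.15 with pandas 2.3.3, numpy 2.4.6 and matplotlib 3.10.9.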

Additional observations from a re-analysis of the deposited data

Results flagged for a closer look

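A difference in the response to Wnt3a between genotypes, tested itself as an interaction in limma, passed the threshold for 16 genes against dHD2/- lines and 7 against dHD1/fl lines, of which the named genes are given. Values are dHD2/- or dHD1/fl minus dHD2/fl on the log2(CPM + 1) scale. Against dHD2/- lines, the named genes that had risen in dHD2/fl lines, 6 of 9, were Dsc1 at -2.91, Scel at -2.46, Klk5 at -3.01, Spink12 at -3.29, Dnase1l2 at -2.79 and Idi2 at -3.33. Dsc1 was at most at 0.0419 CPM, Scel at 0.166, Klk5 at 0.124 and Idi2 at 0 in dHD2/- libraries, so these values mostly restate the rise in dHD2/fl lines, and a gene not expressed and a lost response cannot be told apart. Those that had fallen were Sostdc1 at 2.70, Trp73 at 2.15, Pgap4 at 2.12, Fibin at 2.10, Enox1 at 1.90, Ptn at 1.78 and Krt32 at 1.46. Of these 7, 5 were under 1 CPM in every untreated dHD2/- library, which left little room for a fall on this scale. Against dHD1/fl lines, Dsc1 was at -2.48, Scel at -2.22, Pgap4 at 2.30, Fibin at 2.15, Ptn at 2.01, Trp73 at 1.87 and Krt32 at 1.64. In dHD1/fl lines the 5 genes that had fallen were likewise under 1 CPM in every untreated library. Dsc1 and Scel stayed at or under 0.888 and 0.571 CPM there with Wnt3a, so a low level of the gene and a weaker response cannot be told apart. None of these differences was called by edgeR, which called 0 genes in either comparison (247 and 243 at an unadjusted p under 0.05).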

How the results depend on the processing

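Of the 28 named genes called in the response, all kept the call without a filter on low values, 26 under median-of-ratios scaling, 12 without the replicate block, 9 with DESeq2, 8 with a pseudocount of 0.1 and 3 with edgeR, and none changed direction. With 2 dHD2/fl lines the test depends on the spread pooled over other genotypes, and genes under 1 CPM are limited by depth. Median-of-ratios scaling moved the median change of all tested genes from -0.06 to 0.01. Each cause of a difference between settings was not tested, except that leaving out a dHD1/fl line leaves that genotype with no spread to add.

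Against 43 calls (20 higher, 23 lower), the count was 537 at an unadjusted p with a 1.5-fold change, 86 in the 4 libraries alone (49 higher, 37 lower), 43 in the 6 dHD2/fl libraries (36 and 7), 92 without TGFβ libraries (41 and 51), 38 with DESeq2 (27 and 11), 38 under median-of-ratios scaling (20 and 18), 27 with dHD2/- lines 2 and 3 averaged, 7 with edgeR (6 and 1), 10 with a pseudocount of 0.1 (6 and 4) and 15 without the replicate block (12 and 3). Leaving out 1 line gave 23 to 124 calls, with 23 without dHD2/- line 3, 24 without dHD2/fl line 2, 27 without dHD2/- line 2, 29 without dHD2/fl line 1 and 124 without either dHD1/fl line. Of the 43 genes, 20 were also called in the 4 libraries alone and 34 without TGFβ libraries.

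The 16 called differences of dHD2/- lines became 290 at an unadjusted p with a 1.5-fold change, 2 with DESeq2, 2 with the lines averaged, 2 without the replicate block, 0 with edgeR, 0 with a pseudocount of 0.1 (310 at an unadjusted p under 0.05) and 2 to 47 without 1 line. The 7 of dHD1/fl lines became 245, 1, 1, 2, 0 and 0 (268) in the same settings, 2 without TGFβ libraries, 12 without a filter and 1 to 49 without 1 line. The 283 genes changed by at least 1 in both lines (168 higher, 115 lower) were 569 with a pseudocount of 0.1 and 718 at a limit of 0.58.

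Changes that turned direction were all of genes not called, besides the difference of Ptn between dHD1/fl and dHD2/fl lines, which was -0.25 with DESeq2 and -1.15 with edgeR. Tnks2 was at 0.06 with DESeq2, 0.05 with edgeR and 0.06 under median-of-ratios scaling, and Perp at 0.02, 0.01 and 0.02. Olfm1 was at 0.62 with DESeq2, 0.30 with edgeR and 0.05 with a pseudocount of 0.1, and Vegfd at -0.01 with that pseudocount. Without dHD2/fl line 1 and without line 2, respectively, changes were -0.03 and 0.01 for Tnks2, -0.12 and 0.02 for Perp, -1.73 and 1.38 for Olfm1, -1.01 and 1.12 for Vegfd, -1.06 and 1.60 for Spink5, -0.09 and 0.27 for Rarg, 0.05 and -0.20 for Cdh1, -0.05 and 1.71 for Sparc, -0.18 and 0.23 for Irf1, -0.15 and 2.51 for Col1a1, -0.25 and 5.38 for Col3a1, -0.12 and 1.36 for Pdgfra, -0.22 and 3.16 for Pdgfrb, 0.08 and 0.00 for Krt18, -1.28 and 0.11 for Vim, -0.63 and 0.09 for Top2a, 0.37 and -0.10 for Cxcl16, 0.42 and -0.02 for Ier3, and 0.41 and 0.00 for Fabp4.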
